A study of Homo sapiens with 16 samples.

Results

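The 6 genes described here are LINC00473, a long noncoding RNA gene, and 5 protein-coding genes known from neurons and secretory cells: VGF, KCNC1, SCN3B, STMN2 and SYT2. They were taken by name from a table of 8808 genes measured in U2OS cells, a human osteosarcoma line. They were chosen by their CPM values in these same 12 libraries, so every level and difference given for them is a description and carries no test. Poly(A) RNA was sequenced in 12 libraries, 2 for each of 6 siRNA groups. The control, siLuc, was an siRNA against luciferase. Pools of siRNAs (smartpools) were used against MRG15 (gene MORF4L1), MRGX (MORF4L2), MRGBP and TIP60 (KAT5), and an siRNA given by a single catalogue number against BRD8. Each target was hit by a single reagent or pool. Off-target effects therefore cannot be told apart from loss of the target in any knockdown, BRD8 and the pools included. Separate cultures are not stated for the replicates, so their spread may be technical. The time between transfection and harvest is not given in the sources used here.

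MRG15 and its paralog MRGX are subunits of chromatin complexes, among them the histone acetyltransferase complex of TIP60, to which MRGBP and BRD8 also belong, and MRG15 recognises methylated histone H3 through its chromodomain. Outside the nervous system many neuronal genes are held at a low level, in part by the repressor REST and its corepressors. LINC00473 and VGF are also known as targets of cAMP signalling through the transcription factor CREB. The question put by the design is how the loss of each of these subunits changes the transcripts of the cell.

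The promoters of LINC00473 and VGF are shown because both genes are known to respond to CREB, which binds the cAMP response element (CRE), TGACGTCA, or its shorter core TGACG. Each window is from RefSeq (GRCh38.p14) and runs 5′ to 3′ on the gene's own strand, from 250 bases before to 50 bases after the annotated start. Capitals mark the CRE and the core, the latter read as TGACG on the gene's strand or as CGTCA on the other.
LINC00473 (chr6:165987990-165988289, minus strand): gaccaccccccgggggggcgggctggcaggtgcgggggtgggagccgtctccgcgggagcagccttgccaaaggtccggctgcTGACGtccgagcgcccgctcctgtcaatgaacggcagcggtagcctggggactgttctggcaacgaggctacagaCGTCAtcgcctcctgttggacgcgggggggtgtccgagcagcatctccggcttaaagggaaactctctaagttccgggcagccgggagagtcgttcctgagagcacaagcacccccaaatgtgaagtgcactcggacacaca
VGF (chr7:101165520-101165819, minus strand): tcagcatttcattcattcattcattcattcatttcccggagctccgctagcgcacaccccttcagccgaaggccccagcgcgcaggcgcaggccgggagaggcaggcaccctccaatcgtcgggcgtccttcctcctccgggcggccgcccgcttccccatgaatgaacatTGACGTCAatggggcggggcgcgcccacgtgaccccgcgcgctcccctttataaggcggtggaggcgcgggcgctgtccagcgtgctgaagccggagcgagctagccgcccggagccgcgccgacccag
The VGF window held a full CRE, 79 bases before the start. The LINC00473 window held no full CRE and had 2 separate cores, 167 and 92 bases before the start. Of all 35116 RefSeq windows of this length, 1.85% held the full CRE and 24.55% the core, which is also part of every full CRE. Both strands were searched for each motif, and a match of letters is not evidence of binding.

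Windows of 4 of the 6 genes were searched, with 2 windows each for KCNC1 and SYT2. No window of SCN3B or STMN2 was searched, so nothing is said of their motifs. For the 6 genes the search left out windows on chromosome 8, where STMN2 lies. None of the windows of KCNC1 and SYT2 held the CRE or its core. Only exact matches were counted, so near matches are missing from these results. Such a near match, to the first of the 2 stretches of the REST element given below, lay in the VGF window shown above. It was on the opposite strand, beside the exact match to the second stretch, and differed from the first stretch in its last letter only. How many windows hold such a near match was not tested. The GC box, GGGCGG, which 44.95% of all windows held, occurred 4 times in the VGF window, once in that of LINC00473, 4 times in the first KCNC1 window and 2 times in each SYT2 window. An E-box, CACGTG (7.26% of all windows), lay 54 bases before the VGF start and a TATA box, TATAAA (11.53%), in the opposite orientation 32 bases before it. Of 2 stretches of the element bound by REST, TTCAGCACC (0.38%) was in none of the 6 windows and the short GGACAG (20.55%) was in that of VGF, 6 bases before the start on the opposite strand.

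The libraries held 57255783 to 110402095 reads, as recovered from the step between the lowest values, and levels are given in CPM, counts scaled to the total reads of the library. Each siRNA lowered its own target: mean CPM fell from 322 to 14.7 for MORF4L1, from 269 to 19.9 for MORF4L2, from 103 to 7.89 for MRGBP, from 76.8 to 18.6 for BRD8 and from 19.2 to 2.64 for KAT5. Other targets were lower too. In siTIP60 all 5 fell, with mean CPM of 204 for MORF4L1, 139 for MORF4L2, 44.7 for MRGBP and 47.4 for BRD8. MORF4L2 also fell in siMRG15, siMRGBP and siBRD8 (157 to 190 CPM), MRGBP in siMRG15 and siBRD8 (68.4 and 75.8 CPM), and BRD8 in siMRGBP (47.6 CPM). MORF4L1 fell there as well (283 CPM), a call lost with median-of-ratios scaling. Of 9 osteoblast markers 4 were among the genes tested, and RUNX2 (30.4 to 124 CPM) and COL1A1 (963 to 2334 CPM) were present in all 12 libraries. ALPL, an alkaline phosphatase of osteoblasts, rose from 17.9 ± 1.25 CPM in siLuc to 88.5 ± 15.9 CPM in siMRGBP and 106 ± 3.67 CPM in siTIP60 (log2 differences 2.23 and 2.50, SE 0.10), and RUNX2 rose in siTIP60 by 1.41 ± 0.06. One library stood apart in HBA1, an erythroid globin gene, which had 609 reads in siTIP60 replicate 1 and 0 to 4 reads in each of the other 11. Of 10 listed erythroid genes only HBA1 was among the genes tested, so the others could not be read. The genes are those of a table that the authors headed as significant, and changed genes are the rule in it. By limma on log2(CPM + 1) with Benjamini-Hochberg adjusted p under 0.05, 69.3% of the 8808 genes passed in siMRG15 against siLuc, 68.2% in siMRGX, 65.0% in siMRGBP, 54.2% in siBRD8 and 78.8% in siTIP60.

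The 6 genes did not move as a block. VGF, LINC00473 and KCNC1 were highest after MRG15 knockdown, and VGF and KCNC1 were lowest after MRGX knockdown. STMN2 was high only in the siMRGBP libraries, SCN3B was high in both siMRG15 and siTIP60, and SYT2 was highest in siLuc. The highest library exceeded the lowest 195-fold for LINC00473 (92.6-fold without the lowest, siTIP60 replicate 2, which had 9 reads), 41.6-fold for STMN2, 31.8-fold for SCN3B, 22.8-fold for KCNC1, 10.5-fold for VGF and 7.57-fold for SYT2. The mean level of VGF over the 12 libraries was above that of 98.9% of the genes tested, while the other 5 lay above 31.1% to 51.2% of them. These are CPM levels, which are not divided by gene length.

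**Figure D1:**
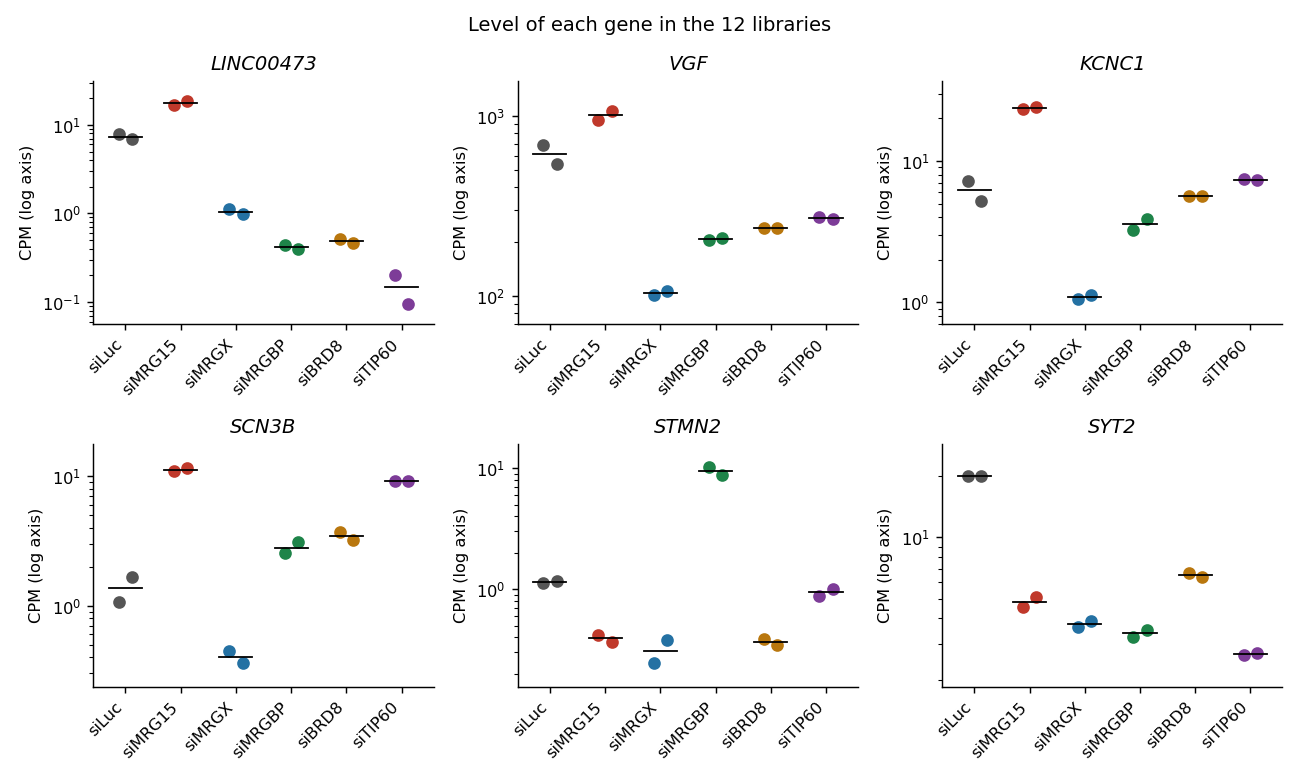
Level of each gene in CPM (log axis) in the 2 libraries of each siRNA group; points are libraries and the black line is the group mean. The 2 libraries of a group mostly lie close together. Those of LINC00473 in siTIP60 (0.199 and 0.0948 CPM), SCN3B in siLuc (1.07 and 1.67 CPM) and STMN2 in siMRGX (0.244 and 0.378 CPM) lie further apart. STMN2 stands out in siMRGBP at 10.1 and 8.78 CPM, and SYT2 is highest in siLuc at 20.0 CPM in both libraries.

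LINC00473, a noncoding RNA induced by cAMP signalling, was 2.40-fold higher in siMRG15 than in siLuc and was lower in the other 4 knockdowns, down to 50.0-fold in siTIP60. That fold was 77.6 without siTIP60 replicate 1 and 36.9 without siTIP60 replicate 2. Its level was 7.88 and 6.84 CPM in the siLuc libraries (mean 7.36 ± 0.734, SD, n = 2 as for every mean here). It was 16.9 and 18.5 CPM in siMRG15, 1.12 and 0.979 CPM in siMRGX, and 0.516 and 0.461 CPM in siBRD8. It was 0.437 and 0.393 CPM in siMRGBP and 0.199 and 0.0948 CPM in siTIP60. The siMRG15 libraries lay above both siLuc libraries and all 8 libraries of the other knockdowns lay below them. Only 9 and 18 reads stood behind the siTIP60 values and 25 to 57 behind those of siMRGBP and siBRD8, whose order is therefore loosely fixed: siBRD8 and siMRGBP did not differ beyond their spread.

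On the log2(CPM + 1) scale LINC00473 differed from siLuc by 1.16 in siMRG15, -2.03 in siMRGX, -2.56 in siMRGBP, -2.49 in siBRD8 and -2.86 in siTIP60, each ± 0.09 (SE from the fit across all genes). Its difference in siBRD8 was the lowest of all 8808 genes, that in siMRGBP the fourth lowest and that in siTIP60 the tenth lowest. Between knockdowns, its excess in siMRG15 was the largest of all genes tested against siMRGBP (3.72 ± 0.09), siBRD8 (3.65 ± 0.09) and siTIP60 (4.02 ± 0.09). The pseudocount of 1 understates changes at these levels: with 0.1 in its place the siTIP60 difference was -4.94 ± 0.19 and the siMRGX difference -2.70 ± 0.19.

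VGF encodes a granin-like precursor of secreted peptides, induced in neurons by nerve growth factor. It was 1.64-fold higher than siLuc in siMRG15 and 5.93-fold lower in siMRGX, with intermediate levels in the other 3 knockdowns. The siLuc libraries had 688 and 540 CPM (614 ± 105) and the siMRG15 libraries 947 and 1067 CPM (1007 ± 84.9). In siMRGX there were 101 and 106 CPM (104 ± 3.06). The siMRGBP libraries had 205 and 209 CPM, the siBRD8 libraries 239 and 237 CPM and the siTIP60 libraries 272 and 267 CPM. No knockdown library fell within the range of siLuc, although the siLuc libraries differed more from each other than those of any other group. The log2 differences from siLuc were 0.72 in siMRG15, -2.55 in siMRGX, -1.55 in siMRGBP, -1.35 in siBRD8 and -1.17 in siTIP60, each ± 0.10 (SE). The order of levels ran from siMRG15 through siLuc, siTIP60, siBRD8 and siMRGBP to siMRGX, in which siTIP60 and siBRD8 did not differ beyond their spread (0.18 ± 0.10). In siMRGX only 8 of the 8808 genes had a lower difference than VGF. All ranks given here are on the log2(CPM + 1) scale, which shrinks changes at low levels and so favours genes as high as VGF. LINC00473 was 7.01-fold lower in siMRGX, more than VGF, and yet ranked 47 from the lowest.

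KCNC1 encodes a fast voltage-gated potassium channel of neurons that fire at high rates. It was 3.84-fold higher than siLuc in siMRG15 and 5.69-fold lower in siMRGX. Its level was 7.19 and 5.23 CPM in siLuc (6.21 ± 1.38), 23.4 and 24.2 CPM in siMRG15 (23.8 ± 0.557) and 1.06 and 1.12 CPM in siMRGX (1.09 ± 0.0401). The siMRGBP libraries, at 3.27 and 3.92 CPM, were lower than both siLuc libraries. The siBRD8 libraries, at 5.65 and 5.64 CPM, lay between the siLuc libraries, and the siTIP60 libraries, at 7.40 and 7.36 CPM, lay just above them. The log2 differences from siLuc were 1.80 in siMRG15, -1.77 in siMRGX, -0.64 in siMRGBP, -0.10 in siBRD8 and 0.23 in siTIP60, each ± 0.11 (SE). Those in siBRD8 and siTIP60 depended on which siLuc library was used. Without siLuc replicate 1 the siBRD8 difference turned to 0.093 and the siTIP60 difference was 0.43, past the threshold used for all genes. Without siLuc replicate 2 the siBRD8 difference was -0.30, also past it.

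SCN3B encodes an auxiliary beta subunit of voltage-gated sodium channels. It was 8.24-fold higher in siMRG15 and 6.71-fold higher in siTIP60 than in siLuc, and lower in siMRGX. The siLuc libraries had 1.07 and 1.67 CPM (1.37 ± 0.425), the siMRG15 libraries 11.0 and 11.6 CPM and the siTIP60 libraries 9.13 and 9.23 CPM. The siBRD8 libraries had 3.69 and 3.22 CPM, the siMRGBP libraries 2.53 and 3.09 CPM and the siMRGX libraries 0.445 and 0.364 CPM, which stood on 31 and 26 reads. The siMRGX libraries lay below both siLuc libraries and the libraries of the other 4 knockdowns lay above them. The log2 differences from siLuc were 2.38 in siMRG15, -0.74 in siMRGX, 0.69 in siMRGBP, 0.92 in siBRD8 and 2.12 in siTIP60, each ± 0.12 (SE). In siMRG15 only 3 genes of the 8808 had a higher difference, while siBRD8 and siMRGBP did not differ beyond their spread (0.23 ± 0.12).

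STMN2 encodes a stathmin that binds tubulin and promotes the turnover of microtubules in growing axons. It was 8.23-fold higher than siLuc in siMRGBP and was not above siLuc in any other group. The siLuc libraries had 1.13 and 1.17 CPM (1.15 ± 0.0242) and the siMRGBP libraries 10.1 and 8.78 CPM (9.46 ± 0.968). The siTIP60 libraries had 0.875 and 1.01 CPM. The siMRG15 libraries (0.416 and 0.369 CPM), the siBRD8 libraries (0.389 and 0.343 CPM) and the siMRGX libraries (0.244 and 0.378 CPM) stood on 17 to 43 reads each and did not differ from one another beyond their spread. The log2 differences from siLuc were -0.63 in siMRG15, -0.72 in siMRGX, 2.28 in siMRGBP, -0.65 in siBRD8 and -0.15 in siTIP60, each ± 0.09 (SE). In siMRGBP, STMN2 exceeded the other knockdowns by 2.43 (siTIP60) to 3.00 (siMRGX) on the log2 scale.

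Because STMN2 is itself a gene of neurons, the neuron markers were read beside it. Of 15 such markers 9 were among the genes tested, and the lowest library of each was above 0. TUBB3 and DCX, which also mark neurons, were not among the genes tested. In siMRGBP 6 of the 9 rose and 2 fell, beside 32.1% and 32.9% of all genes, at a median of 0.42 against -0.02 over all genes, and their summed level was 632 to 706 CPM against 565 to 666 CPM in siLuc. In siMRGX none rose and 8 fell, or 7 under either other scaling (median -0.88, all genes -0.10), with a summed level of 257 to 258 CPM. Of all genes 28.2% rose and 40.0% fell there. In siMRG15 2 of the markers rose and 6 fell (median -0.41), in siBRD8 none rose and 6 fell (-0.50), or 1 and 6 with median-of-ratios scaling, and in siTIP60 2 rose and 5 fell (-0.40). NEFL, a neurofilament subunit, and MAP2, a microtubule-associated protein of dendrites, rose in siMRGBP by 0.83 ± 0.07 and 0.51 ± 0.11 (SE). GAP43, a protein of growth cones, fell there by 0.69 ± 0.11 and L1CAM, an axonal adhesion molecule, by 0.31 ± 0.11. The L1CAM libraries of siMRGBP (228 and 288 CPM) overlapped those of siLuc (361 and 279 CPM). L1CAM was the largest part of the summed level in siLuc and was at 77.2 and 78.9 CPM in siMRGX, so the low sum there leans on this gene. In bulk RNA a change in the share of cells cannot be told apart from a change per cell, and the part of a change in cell state in the STMN2 result was not tested. ALPL, given above, was also higher in siMRGBP, by 2.23 on the log2 scale, and its part was not tested either.

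SYT2 encodes a calcium sensor for the rapid release of synaptic vesicles. It was lower than siLuc in each of the 5 knockdowns, from 3.07-fold in siBRD8 to 7.47-fold in siTIP60. Both siLuc libraries had 20.0 CPM (SD 0.0330). The siBRD8 libraries had 6.65 and 6.37 CPM, the siMRG15 libraries 4.54 and 5.07 CPM and the siMRGX libraries 3.65 and 3.86 CPM. The siMRGBP libraries had 3.25 and 3.51 CPM and the siTIP60 libraries 2.65 and 2.71 CPM. The highest of the 10 knockdown libraries was thus at 6.65 CPM, well below both controls, with which all 5 comparisons are made. The log2 differences from siLuc were -1.86 in siMRG15, -2.14 in siMRGX, -2.26 in siMRGBP, -1.48 in siBRD8 and -2.51 in siTIP60, each ± 0.08 (SE). Only siMRGX and siMRGBP, neighbours in that order, did not differ beyond their spread (0.12 ± 0.08).

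**Figure D2:**
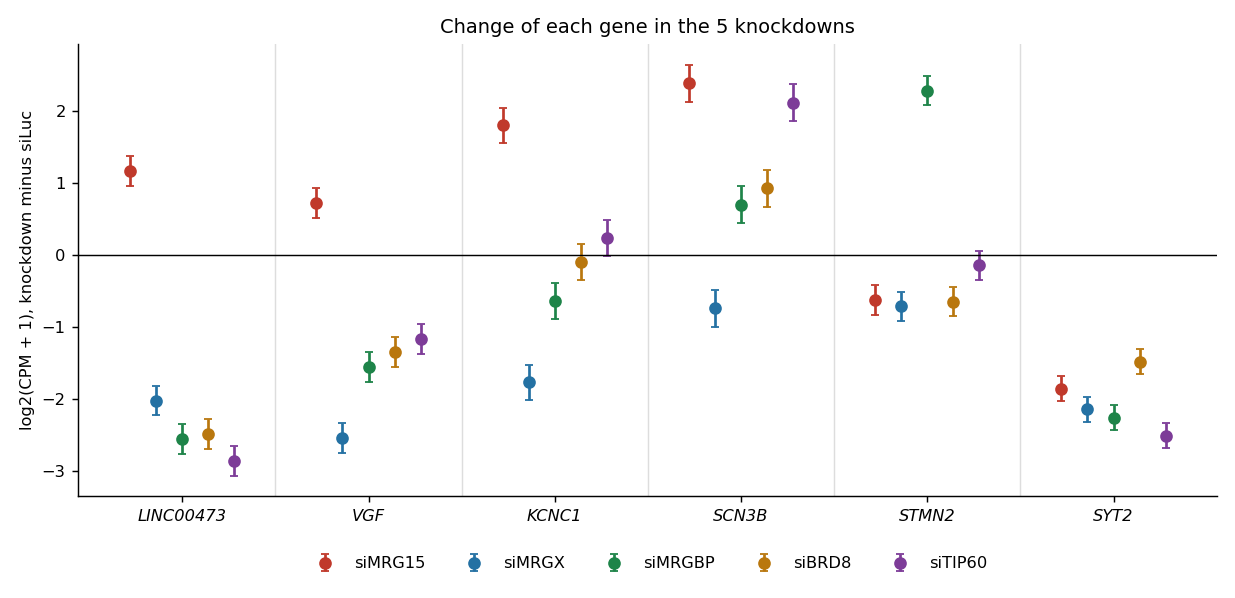
Difference in log2(CPM + 1) of each gene between a knockdown and siLuc, one point per knockdown, with the 95% confidence interval of the fit. The intervals of KCNC1 in siBRD8 and siTIP60 and of STMN2 in siTIP60 include 0, and the only STMN2 difference above 0 is that in siMRGBP, at 2.28.

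The fit passed 4 of the 6 genes as higher and 2 as lower in siMRG15, where 33.5% of all genes were called higher and 35.8% lower. In siMRGX it passed none as higher and 6 as lower, beside 28.2% and 40.0% of all genes. With median-of-ratios scaling, which raises the median of all genes in siMRGX by 0.11, the whole-table split there became 3120 higher and 2886 lower in place of 2488 and 3520, and VGF remained at -2.38 and SYT2 at -2.01. In siMRGBP 2 were higher and 4 lower (all genes 32.1% and 32.9%), in siBRD8 1 and 4 (28.3% and 25.9%) and in siTIP60 1 and 3 (41.1% and 37.7%). The genes that did not pass were KCNC1 in siBRD8 and siTIP60 and STMN2 in siTIP60. The choice of the 6 genes used these values, so nothing is read from the counts. The median difference over the 6 was 0.94 in siMRG15, -1.90 in siMRGX, -1.10 in siMRGBP, -1.00 in siBRD8 and -0.66 in siTIP60, beside all-gene medians of -0.03, -0.10, -0.02, 0.01 and 0.05. For siTIP60, leaving out replicate 1, the library with HBA1 reads, gave -2.93 for LINC00473, -1.19 for VGF, 0.23 for KCNC1, 2.12 for SCN3B, -0.10 for STMN2 and -2.50 for SYT2.

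The paralogs MRG15 and MRGX were set against each other directly. KCNC1 was 21.8-fold higher in siMRG15 than in siMRGX, a log2 difference of 3.57 ± 0.11 (SE) that only 1 of the 8808 genes exceeded. SCN3B was 27.9-fold higher (3.13 ± 0.12), LINC00473 16.8-fold higher (3.19 ± 0.09) and VGF 9.73-fold higher (3.27 ± 0.10), and all 3 were among the 8 genes with the highest difference. On that scale SCN3B ranked below KCNC1, VGF and LINC00473, although its fold was the largest. For these 4 genes siMRG15 lay above siLuc and siMRGX below it. SYT2 and STMN2 lay below siLuc in both. SYT2 was 1.28-fold higher in siMRG15 than in siMRGX (0.29 ± 0.08), and the STMN2 libraries of the 2 groups overlapped (0.09 ± 0.09, 95% confidence interval -0.11 to 0.29).

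**Figure D3:**
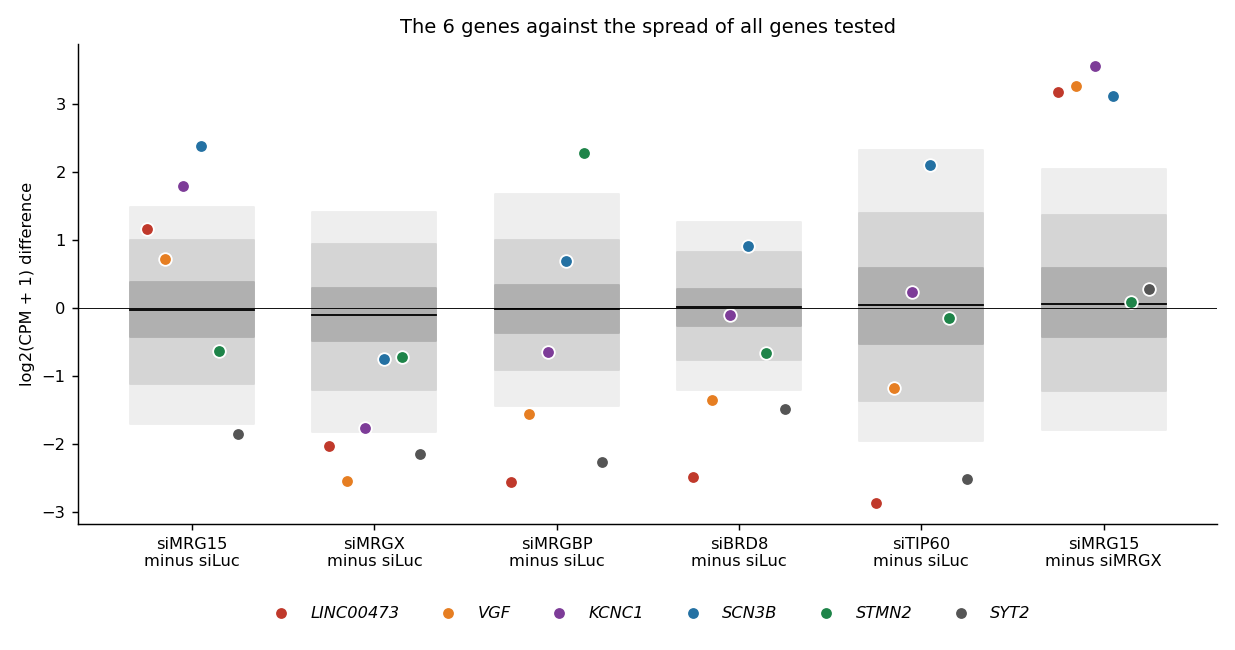
Differences in log2(CPM + 1) of the 6 genes (points) against all 8808 genes tested, with bands for the 1st to 99th, 5th to 95th and 25th to 75th percentiles and a line at the median. Against siMRGX, siMRG15 holds KCNC1, VGF, LINC00473 and SCN3B far above the widest band, at 3.13 to 3.57.

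Across the 12 libraries the levels of VGF and KCNC1 went together most closely (Pearson r = 0.91 on log2(CPM + 1)), followed by KCNC1 with SCN3B (0.84) and LINC00473 with VGF (0.84). SCN3B and LINC00473, each close to one of that chain, had little in common with each other (0.20), in that SCN3B was high and LINC00473 at its lowest in siTIP60. STMN2 had no r above 0 with any of the other 5 genes, and SYT2 and SCN3B had an r of -0.34. These coefficients describe 6 groups of 2 libraries with a shared control and are not a test.

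The genes of the table whose profile was most like each gene were found by the same r over the 12 libraries. For KCNC1 they were B3GAT1 (0.993), a glucuronyltransferase that makes a carbohydrate epitope of neural cells, OGDHL (0.992), a relative of a citric acid cycle enzyme, and RTN1 (0.985), a reticulon of neuroendocrine cells. RTN1 differed from siLuc by 1.43 in siMRG15, -1.74 in siMRGX, -0.53 in siMRGBP, -0.20 in siBRD8 and 0.47 in siTIP60 (SE 0.08). For VGF they were PCOLCE (0.982), an enhancer of procollagen processing, CYBRD1 (0.981), a ferric reductase, and C4orf34 (0.980). PCOLCE shared the low siMRGX level of VGF (-1.55 ± 0.08) and was near siLuc in siMRG15 (0.04 ± 0.08).

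For STMN2 the nearest were MYADM (0.986), EGF (0.986), which encodes epidermal growth factor, and SPOCD1 (0.983). EGF was at 48.6 and 41.8 CPM in siMRGBP and at 4.45 and 4.21 CPM in siLuc, a log2 difference of 3.11 ± 0.09 (SE), and MYADM and SPOCD1 were higher in siMRGBP by 1.66 and 1.67. For SCN3B they were FAM171B (0.985), ANKRA2 (0.981) and IQGAP2 (0.981), a scaffold protein. ANKRA2 was higher by 1.65 in siMRG15 and 1.49 in siTIP60 and near siLuc in siMRGX (-0.06, SE 0.08 for each).

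For SYT2 they were CAMKV (0.966), a kinase-like protein of synaptic vesicles, LDLRAD4 (0.964) and IFIT1 (0.963), an interferon-induced protein. IFIT1 was below siLuc in each knockdown, by -1.17 in siMRG15 to -1.93 in siTIP60 (SE 0.11). For LINC00473 they were GPR124 (0.970), an adhesion receptor, METTL7A (0.960) and VPS37D (0.956), a subunit of an endosomal sorting complex. GPR124 differed from siLuc by 0.51 in siMRG15 and by -0.92 to -1.32 in the other 4 knockdowns (SE 0.13), a narrower range than LINC00473.

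**Figure D4:**
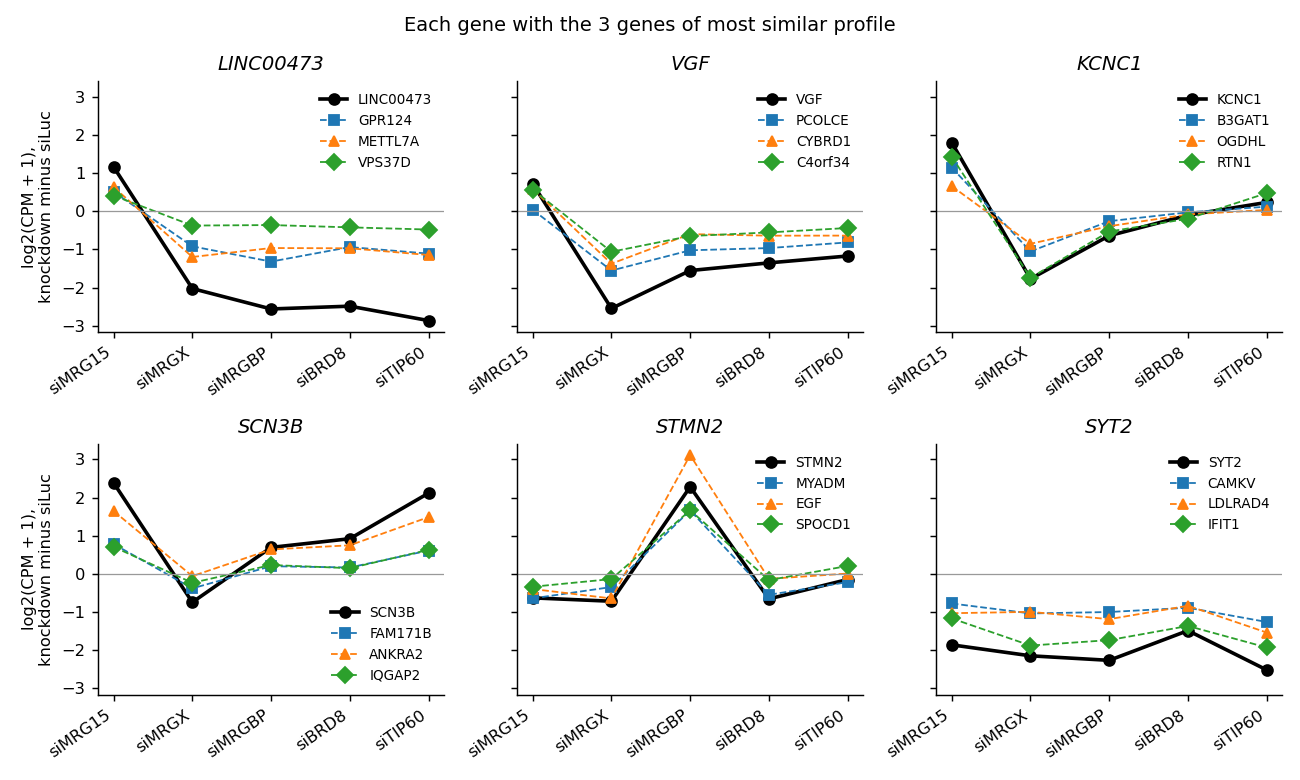
Difference in log2(CPM + 1) from siLuc in the 5 knockdowns for each of the 6 genes (black) and the 3 genes with the highest r to it (dashed). EGF exceeds STMN2 in siMRGBP (3.11 against 2.28), and the neighbours of LINC00473 span a smaller range than it does.

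The wider families of these genes were read in the same fit, with the 6 genes themselves left out. Their counts stand beside those of all genes, of which 33.5% rose and 35.8% fell in siMRG15, 28.2% and 40.0% in siMRGX, 32.1% and 32.9% in siMRGBP, 28.3% and 25.9% in siBRD8 and 41.1% and 37.7% in siTIP60. Of 16 other synaptotagmins 12 were among the genes tested, of which 4 rose and 7 fell in siMRG15, 2 rose and 8 fell in siMRGX, 5 and 7 in siMRGBP, 4 and 5 in siBRD8 and 6 and 4 in siTIP60. Their medians were -0.40, -0.76, -0.32, 0.08 and 0.26 in that order, beside all-gene medians of -0.03, -0.10, -0.02, 0.01 and 0.05. SYT1, the main calcium sensor of forebrain synapses, rose in siMRGBP from 8.70 and 8.34 CPM to 35.7 and 37.2 CPM (1.98 ± 0.10) and fell by 1.00 ± 0.10 in siMRGX. SYT9 rose by 1.70 ± 0.10 in siTIP60 and by 1.35 ± 0.10 in siMRG15. SYT11 and SYT12 fell in all 5 knockdowns, most in siMRGX (-2.09 ± 0.07 and -2.29 ± 0.14). Both other stathmins tested rose in siMRG15 and fell in siMRGBP, the group in which STMN2 was high: STMN3 fell by 0.99 ± 0.11 there and STMN1 by 0.72 ± 0.08. The fall of STMN1 in siMRGX (-0.20) was not called under either other scaling.

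Of 12 other voltage-gated sodium channel subunits 8 were tested, where all genes had 33.5% higher and 35.8% lower in siMRG15 (median -0.03) and 28.2% and 40.0% in siMRGX (-0.10). In siMRG15 5 rose and 2 fell (median 0.40), in siMRGX 1 rose and 6 fell (-0.66), in siMRGBP 3 rose and none fell (0.06), in siBRD8 3 rose and 4 fell (-0.26) and in siTIP60 4 rose and 2 fell (0.20). SCN2A, a pore subunit of axons, rose in siMRG15 by 1.20 ± 0.10, and SCN4B, another beta subunit, rose there by 0.89 ± 0.10 and fell by 1.56 ± 0.10 in siMRGX. SCN2B fell by 1.85 ± 0.13 in siMRGX, while SCN9A, a pore subunit of sensory neurons, rose in siMRGBP by 0.96 ± 0.10. Of 46 other voltage-gated potassium channel subunits 26 were tested, of which 13 rose and 6 fell in siMRG15 (median 0.21) and 5 rose and 14 fell in siMRGX (-0.35). In siMRGBP 7 rose and 11 fell, in siBRD8 8 and 6 and in siTIP60 9 and 10, with medians of 0.01, 0.13 and -0.08. KCND1 fell by 2.31 ± 0.10 in siMRGX, KCNA2 by 1.82 ± 0.10 and KCNA1 by 1.78 ± 0.11, and KCNG1, a modifier subunit, rose in siTIP60 by 1.81 ± 0.18.

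Granins and the enzymes that process prohormones, which work with precursors such as VGF, were listed as 10 genes, of which 7 were tested, beside the shares of all genes given above. In siMRG15 4 rose and 2 fell (median 0.42), in siMRGX 2 and 4 (-0.49), in siMRGBP 2 and 2 (-0.24), in siBRD8 2 and 4 (-0.37) and in siTIP60 5 and 2 (0.60). PAM, which amidates peptide hormones, rose in all 5 knockdowns, from 0.50 ± 0.07 in siTIP60 to 1.35 ± 0.07 in siMRGBP, also in siMRGX (1.03 ± 0.07), where VGF was lowest. SCG5, a chaperone of a prohormone convertase, fell by 1.77 ± 0.11 in siMRG15 and rose in siTIP60 by 1.60 ± 0.11, opposite to VGF in both. CHGB, a granin, rose in siTIP60 by 0.95 ± 0.12, and SCG2, a secretogranin, fell by 0.92 ± 0.11 in siMRGX.

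Of 25 genes of the vesicle release machinery 20 were tested. The shares of all genes that rose and fell were 33.5% and 35.8% in siMRG15 (median -0.03) and 28.2% and 40.0% in siMRGX (median -0.10). In siMRG15 15 rose and 2 fell (median 0.42), in siMRGX 4 rose and 13 fell (-0.48), in siMRGBP 10 and 6 (0.20), in siBRD8 5 and 7 (0.01) and in siTIP60 11 and 3 (0.29). The siBRD8 median turned to -0.01 with scaling by trimmed means (TMM). UNC13B, a vesicle priming factor, rose in siMRG15 by 1.58 ± 0.06, CPLX1, a complexin, by 1.40 ± 0.10 and BSN, a scaffold of the active zone, by 1.47 ± 0.11, whereas RIMS2, which tethers vesicles and channels, fell by 2.18 ± 0.10 there.

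Of 18 genes of the cAMP and CREB response 13 were tested. In siMRG15 3 rose and 3 fell (median 0.16), in siMRGX 3 rose and 10 fell (-0.75), in siMRGBP 4 and 7 (-0.19), in siBRD8 4 and 6 (-0.29) and in siTIP60 4 and 7 (-0.33). Beside these, 28.2% of all genes rose and 40.0% fell in siMRGX (median -0.10). With TMM scaling 5 rose in siMRG15, NR4A2 and NR4A3 being added, and 9 fell in siMRGX. With median-of-ratios scaling 8 fell in siMRGX. PDE4B, a cAMP phosphodiesterase, fell by 2.32 ± 0.12 in siMRGX, in siBRD8 by 1.60 ± 0.12, in siMRGBP by 1.59 ± 0.12 and in siTIP60 by 1.04 ± 0.12, and was at 0.06 ± 0.12 in siMRG15. FOS, an immediate early transcription factor, fell by 1.17 ± 0.10 in siMRG15, where LINC00473 and VGF were high, and in siMRGBP by 1.72 ± 0.10. Its mean was also below that of siLuc (106 CPM) in siTIP60 (45.6 CPM) and siMRGX (53.6 CPM), where LINC00473 and VGF were low. In siBRD8 the FOS libraries overlapped those of siLuc (89.3 and 101 CPM against 114 and 97.9 CPM). The nuclear receptors NR4A1 and NR4A2 fell by 1.35 ± 0.16 and 1.67 ± 0.12 in siMRGBP. NR4A1 was also low in siMRGX and siTIP60 (means of 17.9 and 22.5 CPM, beside 16.6 CPM in siMRGBP). Its siLuc libraries were far apart, at 56.0 and 34.2 CPM.

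**Figure D5:**
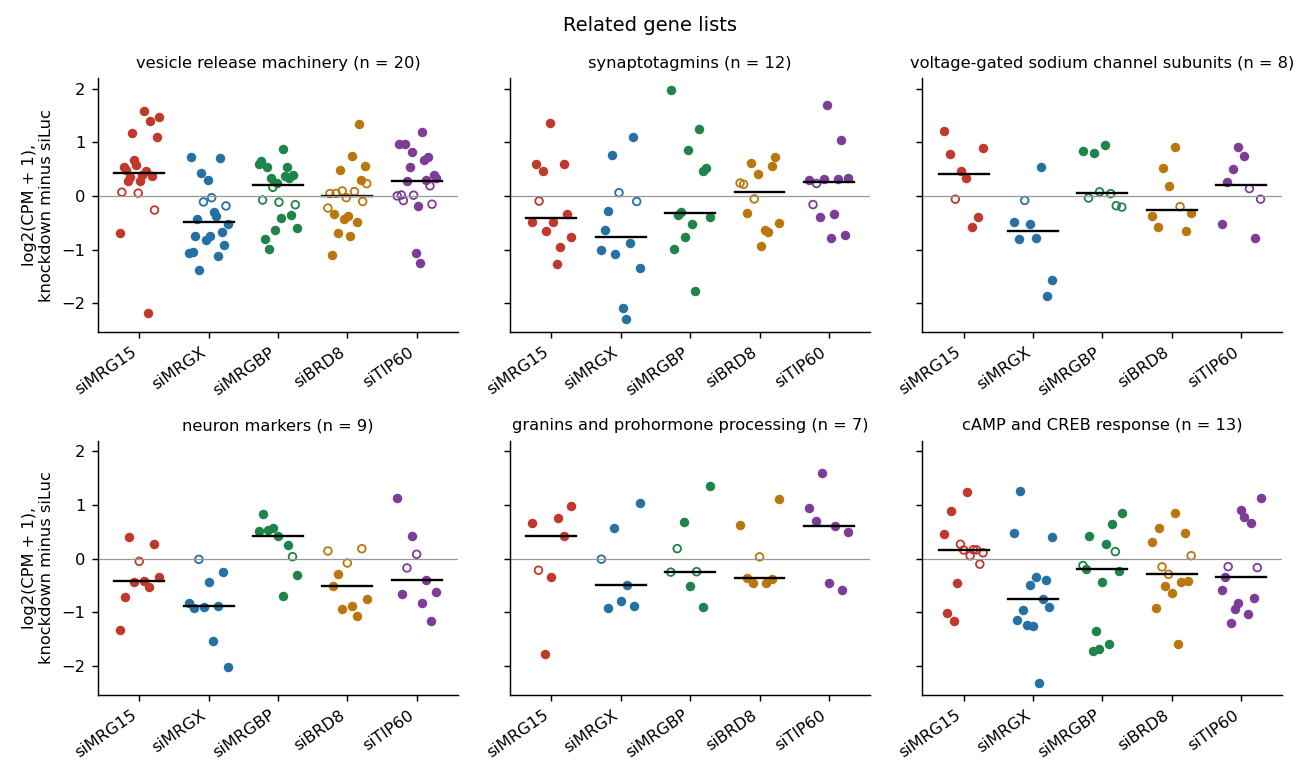
Difference in log2(CPM + 1) from siLuc for every tested gene of 6 related lists in the 5 knockdowns; filled points passed at adjusted p under 0.05 (limma), open points did not, and the line is the list's median. In siMRG15 the vesicle release list has a median of 0.42 and in siMRGX of -0.48.

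REST itself was not among the genes tested, and of 15 listed genes, REST and those of its corepressor complexes, 5 were. In siMRG15 3 rose and 1 fell (median 0.38), in siMRGX 3 and 2 (0.21), in siMRGBP 1 and 2 (-0.13), in siBRD8 2 and none (0.01) and in siTIP60 1 and 4 (-0.41). In siTIP60 41.1% of all genes rose and 37.7% fell (median 0.05). CTDSPL, a small phosphatase, fell in siMRGX, siMRGBP and siTIP60 (-1.10, -1.14 and -1.10, SE 0.08). RCOR1, the REST corepressor, fell by 0.72 ± 0.06 in siTIP60.

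The authors' deposited table of transcripts marks single transcripts as up or down against siLuc, by thresholds not given in the sources used here. In the authors' deposited table the 1 SYT2 transcript was marked down in all 5 knockdowns, and the 1 STMN2 transcript up in siMRGBP, down in siMRG15, siMRGX and siBRD8 and unmarked in siTIP60. Of 3 VGF transcripts the authors' deposited table marked 3 down in siMRGX, 2 in siMRGBP, 1 in siBRD8 and 1 in siTIP60, and none in siMRG15. Of 3 KCNC1 transcripts, 1 was up in siMRG15, 2 were down in siMRGX and 1 was down in siMRGBP in the authors' deposited table. Of 3 SCN3B transcripts the authors' deposited table marked 1 up in siMRG15, siMRGBP and siBRD8 each, 2 up in siTIP60 and 2 down in siMRGX. In RefSeq the locus of LINC00473 overlaps PDE10A and LINC00602, that of SYT2 overlaps PPP1R12B, and those of SCN3B and STMN2 overlap uncharacterised genes. Since use of strand in counting is not given in the sources used here, reads of these neighbours cannot be told apart from those of the 4 genes.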

How the data were processed

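The authors deposited gene values in CPM (counts scaled to the total reads of each library) for 12 poly(A) RNA libraries of U2OS cells in 6 siRNA groups of 2. Tools per the submitters' processing notes include minimap2 2.17-r941 and featureCounts of Subread 2.0.0, with build hg19 and no role or order. Use of strand, and the rule of gene selection, were not given in the sources used here. Of 8813 rows, 5 that repeated all 12 values of another row were removed, which left 8808 genes. All 12 libraries' values were whole multiples of 1 read (tolerance 0.01 reads), which gave the depth.

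Values were tested as log2(CPM + 1) with limma 3.58.1 (R 4.3.3), with an intensity trend, 6 group means, 6 residual degrees of freedom and two-sided p-values adjusted by Benjamini-Hochberg over all genes. The threshold was an adjusted p of 0.05. The script was tested on simulated data. Neighbouring groups in an order of levels were called different where their libraries did not overlap and the difference exceeded 2 SE. The members and gene lists were chosen with earlier results of these data known. Named genes were the 6 members, the siRNA targets, the 3 genes of highest r to each member and up to 4 genes of each list with the largest change among those called. One gene that the rule names is not reported here. NEFL and NR4A3, outside that rule, were chosen after their values were seen. The authors' deposited table of transcripts supplied up and down marks. Other pseudocounts, a minimum CPM, 2 scalings, a replicate block, the 4 libraries of each comparison alone and each library left out were tried. Folds and spans without single libraries were added after seeing the data. The 4 K562 chromatin samples were not analysed here.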

Additional observations from a re-analysis of the deposited data

How the results depend on the processing

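The differences of the 6 genes from siLuc were recomputed under 19 settings, which gave 555 values, of which 552 kept their direction and their side of the threshold. The other 3 were KCNC1 in siBRD8, which turned from -0.10 to 0.093 without siLuc replicate 1 and was -0.30 without siLuc replicate 2, and KCNC1 in siTIP60, which was 0.43 without siLuc replicate 1. Many of the 552 could not have changed direction. A library left out of another group, the minimum CPM, the replicate block and the 4 libraries alone leave the difference itself unchanged. Under these settings only the adjusted p could move. The 6 genes were also chosen by their values in these libraries, so the count of 552 is not a measure of robustness. Requiring a mean of at least 5 CPM left 4915 genes and 3 of the 6 (VGF, KCNC1 and SYT2). Fewer genes were then called, out of fewer tested: 3801 in siMRG15 (6100 of 8808 without the requirement), 3820 in siMRGX (6008), 3652 in siMRGBP (5723) and 4206 in siTIP60 (6940). As a share of the genes tested, more were called in each of these groups with the requirement. Leaving out each library in turn gave 5380 to 6290 genes called in siMRG15, 5192 to 6173 in siMRGX, 5193 to 5624 in siMRGBP, 3728 to 5022 in siBRD8 and 6307 to 7080 in siTIP60. The replicate numbers did not pair the samples in the same way across groups: deviations from the group means had r of -0.47 to 0.18 over 15 pairs of groups, 3 of them over 0.1. The lowest r was that of siLuc with siMRGBP. Batches shared under another numbering were not tested. With the replicate number as a block 6029, 5907, 5629, 4632 and 6869 genes were called in siMRG15, siMRGX, siMRGBP, siBRD8 and siTIP60. Depth limits LINC00473 in siMRGBP, siBRD8 and siTIP60, STMN2 in siMRG15, siMRGX and siBRD8, and SCN3B in siMRGX, which stood on 9 to 57 reads a library.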
